A study of Mus musculus with 59 samples.

Results

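The small nucleolar RNA (snoRNA) and small Cajal body RNA (scaRNA) genes were followed in mouse embryonic stem cells (ESCs) that lack Zcchc8, before and during a block of transcription. Members were all gene symbols that begin with Snord, Snora or Scarna and go on with a digit. They numbered 114 of the 23974 genes of the table: 69 box C/D genes (Snord), 36 box H/ACA genes (Snora) and 9 Cajal body RNA genes (Scarna). Per the labels, the tested cells were Zcchc8 KO ESCs and the control cells were wild type ESCs. Both were derived from BDF1 strain blastocysts and grown with serum, LIF, CHIR99021 and PD0325901. Both received Actinomycin D at 5 µg/ml for 0, 4 or 8 h, so the 0 h groups are the baseline, and ERCC spike-in RNA was added to each. Total RNA was sequenced after removal of ribosomal RNA. Each of the 6 groups held 2 libraries, 12 of the 59 samples of the series. The labels do not say whether replicates were separate cultures or how many KO clones were used, so p-values measure only the spread between these libraries.

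Box C/D snoRNAs guide 2′-O-methylation and box H/ACA snoRNAs guide pseudouridylation, mostly of ribosomal RNA, and scaRNAs do the same for the small nuclear RNAs of the spliceosome in Cajal bodies. In mammals most are cut out of introns of a host gene, bound by core proteins, and trimmed at both ends by exonucleases. ZCCHC8 is the scaffold of the nuclear exosome targeting (NEXT) complex, which in human cells has been linked to decay of introns, promoter upstream transcripts and 3′-extended snoRNA precursors. A mature snoRNA held by its proteins is a long-lived RNA.

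The sequences of the members on which the results turn are shown from the GENCODE M21 transcripts (GRCm38), 5′ to 3′, with T for U. Capitals mark the boxes by which the classes are known. In box C/D RNAs these are TGATGA (box C) within the first 20 bases and CTGA (box D) within the last 20, and in H/ACA RNAs the ACA that starts 6 bases before the 3′ end. Scarna13 lies on chromosome 12 (minus strand) within an intron of Snhg10 and Snora78 on chromosome 17 (minus) within an intron of Snhg9. Snord82 lies on chromosome 1 (minus) within an intron of Ncl, the nucleolin gene. Snord49a and Snord49b lie on chromosome 11 (plus) within introns of 2410006H16Rik. Snord19 lies on chromosome 14 (minus), overlapping an annotated exon of Gnl3.
Scarna13: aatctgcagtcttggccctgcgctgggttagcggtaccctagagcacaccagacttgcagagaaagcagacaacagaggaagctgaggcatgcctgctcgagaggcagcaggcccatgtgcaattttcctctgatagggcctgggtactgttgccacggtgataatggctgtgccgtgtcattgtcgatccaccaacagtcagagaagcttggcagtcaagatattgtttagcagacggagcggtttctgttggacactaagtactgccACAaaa
Snora78: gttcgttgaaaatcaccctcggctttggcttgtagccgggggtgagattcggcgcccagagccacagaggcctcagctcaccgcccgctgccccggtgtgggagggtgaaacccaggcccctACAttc
Snord82: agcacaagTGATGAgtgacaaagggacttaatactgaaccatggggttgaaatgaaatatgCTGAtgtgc
Snord49a: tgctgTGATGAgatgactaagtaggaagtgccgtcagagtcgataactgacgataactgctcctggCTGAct
Snord49b: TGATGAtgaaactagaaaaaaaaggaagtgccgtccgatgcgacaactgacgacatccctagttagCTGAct
Snord19: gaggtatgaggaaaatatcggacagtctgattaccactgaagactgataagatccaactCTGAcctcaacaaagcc

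Snord49a and Snord49b, both U49-type RNAs, were identical at 70.7% of 75 aligned positions and shared a longest run of 13 bases, aggaagtgccgtc. Only a read of at most 13 bases could match both without a mismatch. Of the box C/D genes with a GENCODE sequence, 43 of 67 held TGATGA in the first 20 bases, against 0.699% of all 141704 transcripts of the annotation, and 65 of 67 held CTGA in the last 20, against 9.24%. The ACA stood in place in 28 of 34 box H/ACA genes, against 2.45% of all transcripts (sense strand in each case). The sequence letters thus go with the symbols for most members. The RefSeq model on GRCm38 can be shorter or longer than the GENCODE transcript, and the RefSeq version that was counted is not given. The GRCm38 model covered 61 of 414 bases of Scarna2 and 54 of 76 bases of Snord19. For Snora78 it had 157 bases, against 128 in GENCODE, so bases outside the sequence shown may have been counted. Levels are therefore compared between libraries here and not between genes.

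The levels given are the normalised read counts of the authors' table, summed per gene. They are whole reads multiplied by 1 factor per library, so reads could be recovered and are given in brackets. Libraries held 465324 to 1364523 counted reads, and 1 read was worth 0.452 to 3.23 units. Zcchc8 itself was lower in KO at 0 h (5.29 and 25.3 in KO, 59.3 and 77.5 in control; log2 change −2.42, SE 0.681, limma adjusted p = 0.0332) and was not called at 4 or 8 h. It had 13.6 to 21.3 in KO and 24.7 to 32.7 in control at 4 h. The genotypes overlapped at 8 h (3.78 to 9.56 in KO, 7.57 to 11.3 in control), so Zcchc8 reads do not tell them apart at that time. Over all tested genes, KO against control had median log2 changes of 0.44, 0.29 and 0.63 in time order. The median of 8 h against 0 h was −1.15 in KO and −1.33 in control. Results are therefore also given after TMM scaling, which brings these medians to within 0.07 of 0. The KO 8 h replicates stood apart from each other, with a chi-square of their reads of 13.3 per degree of freedom, against 3.50 to 4.19 in the other groups. Of the ESC markers, Pou5f1, Sox2, Zfp42, Dppa5a, Tdgf1 and Klf4 were measured, while Esrrb was listed at 0 and Nanog had 4 reads. Of 10 fibroblast markers only Pdgfrb was listed at 0 and 9 were tested. Their summed value was 12240 to 16111 in KO and 5161 to 8440 in control at 0 h, 15207 to 16508 in KO and 7511 to 8990 in control at 4 h, and 9201 to 12022 in KO and 6693 to 8315 in control at 8 h. Col1a1 weighed most in this sum, with a mean value of 6248 over the libraries, followed by Col1a2 with 1589. At 0 h, 4 of the 9 (Acta2, Cdh11, Thy1 and Vim) rose in KO on both scales. Of all tested genes, 4.23% rose at 0 h on the deposited scale and 1.35% after TMM scaling. Per 100000 reads without Rn45s, the fibroblast sum was 986 to 1287 in KO and 658 to 748 in control at 0 h and 1846 to 2002 in KO and 1136 to 1205 in control at 4 h, and the genotypes overlapped at 8 h (1220 to 1985 in KO, 1862 to 1878 in control). On the deposited scale the summed ESC markers overlapped between genotypes at each time (2714 to 2858 in KO and 2020 to 3653 in control at 0 h).

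Detection was sparse. Of the 114 members, 87 had a read in at least 1 library and 27 had none in 10175732 reads, which allows each undetected member up to 0.0295 reads per 100000 of the pooled libraries (counting error only). Undetected members comprised 16 of 69 box C/D, 9 of 36 box H/ACA and 2 of 9 Cajal body RNA genes. Reads were found in all 12 libraries for 6 members (Scarna2, Scarna13, Snora74a, Snora78, Snord22 and Snord104) and in only 1 to 3 libraries for 36. The median RefSeq length was 77 bases for detected and 90 bases for undetected members. All members together had 4766 reads, of which Cajal body RNAs held 50.0%, box C/D RNAs 32.4% and box H/ACA RNAs 17.6%. Scarna2 and Scarna13 alone held 43.7%. Even read numbers made up 72.2% of the 461 member counts above 0, with 110 counts of exactly 2 and 66 of exactly 1, whereas 49.9% were even over all genes. No source used here says whether both mates of a fragment were counted, and member reads may not all be independent molecules.

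At 0 h, reads were found for 42 and 36 members in the KO libraries and for 39 and 31 in the control libraries. At 4 h the numbers were 46 and 40 in KO and 34 and 38 in control. At 8 h they were 49 and 28 in KO and 34 and 44 in control. KO and control overlapped at 0 and 8 h, and both KO libraries were higher at 4 h. Deeper libraries tended to hold more members. At the depth of the shallowest library (397398 reads without the ribosomal RNA precursor Rn45s), 25.1 to 41.1 members would be found on average in KO and 28.3 to 36.9 in control. At this depth both KO libraries were still higher at 4 h (35.6 and 32.2 in KO, 28.3 and 30.8 in control). The genotypes overlapped at 0 and 8 h.

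By class, box C/D genes with a read numbered 15 to 27 of 69 per library in KO and 19 to 23 in control. Box H/ACA genes numbered 8 to 16 of 36 in KO and 7 to 15 in control. Cajal body RNA genes numbered 4 to 6 of 9 in KO and 4 to 7 in control. Within single times the genotypes overlapped in each class at 0 and 8 h. At 4 h KO was higher without overlap for box C/D genes (27 and 26 in KO, 22 and 23 in control) and Cajal body RNA genes (6 and 6 in KO, 5 and 5 in control). These class counts were not adjusted for depth. The 4 h libraries held 1354984 and 923414 reads without Rn45s in KO, against 856778 and 1024759 in control. The matching numbers over all genes were not worked out.

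**Figure D1:**
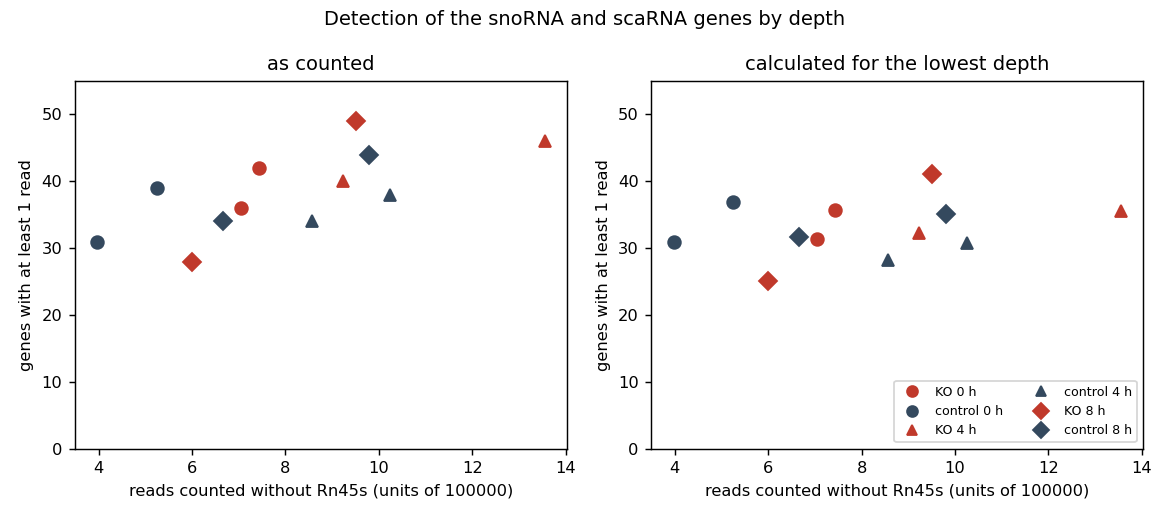
Number of the 114 snoRNA and scaRNA genes with at least 1 read in each library (y axis) against its reads without Rn45s in units of 100000 (x axis), as counted (left) and as calculated for the lowest depth of 397398 reads (right). Colour gives the genotype and shape the time; KO 8 h replicate 2 has the lowest number (28) and KO 8 h replicate 1 the highest (49).

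On the deposited scale the box C/D RNAs had a lower summed value at 8 h than at 0 h, without overlap, in both genotypes, while the ranges of the Cajal body RNAs at 0 and 8 h overlapped in both. This depended on the scale, since the 0 and 8 h box C/D sums overlapped in both genotypes after TMM scaling and as a share of reads. The summed value of the Cajal body RNA genes in KO was 130.4 ± 29.9, 167 ± 33.1 and 128 ± 55.8 at 0, 4 and 8 h (SD, n = 2 each). In control it was 177 ± 83.9, 171 ± 16.8 and 203 ± 12.6. Their ranges overlapped between genotypes at 0 and 4 h and not at 8 h, where KO had 88.2 and 167 and control 194 and 212. As a share of the reads without Rn45s, Cajal body RNAs had 10.5 ± 2.34, 20.2 ± 1.67 and 19.6 ± 11.2 reads per 100000 in KO over 0, 4 and 8 h. In control they had 17.7 ± 0.985, 24.3 ± 1.72 and 50.9 ± 4.32. On this share, the KO libraries lay below both control libraries at each time. The summed ESC markers did so too, with 219 to 228 reads per 100000 in KO and 285 to 293 in control at 0 h, 131 to 141 in KO and 162 to 174 in control at 4 h, and 88.3 to 143 in KO and 165 to 168 in control at 8 h. Their part in the difference was not tested.

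The summed box C/D value in KO was 186 ± 36.6, 137 ± 16.0 and 99.0 ± 31.3 at 0, 4 and 8 h. In control it was 188 ± 76.3, 87.6 ± 33.4 and 70.9 ± 3.92. KO lay above control without overlap at 4 and 8 h on the deposited scale, where 37% and 55.3% of all tested genes did. As a share, box C/D RNAs had 14.9 ± 2.85, 16.6 ± 0.0264 and 15.1 ± 6.94 reads per 100000 in KO. In control they had 19.2 ± 0.412, 12.2 ± 2.67 and 17.8 ± 1.63. On that share KO lay below control without overlap at 0 h (17.0 and 12.9 in KO, 19.5 and 18.9 in control). It lay above control at 4 h, and the groups overlapped at 8 h. The order of the genotypes at 8 h thus depended on the scale.

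The summed box H/ACA value in KO was 60.1 ± 15.1, 59.0 ± 24.8 and 45.4 ± 21.5 at 0, 4 and 8 h. In control it was 122 ± 46.3, 48.0 ± 19.5 and 61.9 ± 8.87. Only at 0 h did the groups not overlap on the deposited scale (49.4 and 70.7 in KO, 89.6 and 155 in control). As a share, KO had 4.81 ± 1.18, 7.01 ± 2.19 and 7.002 ± 4.24 reads per 100000 and control 12.5 ± 0.631, 6.65 ± 1.64 and 15.4 ± 0.0520. KO lay below control at 0 and 8 h on that share. Class sums are carried by few genes and are given without a test.

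**Figure D2:**
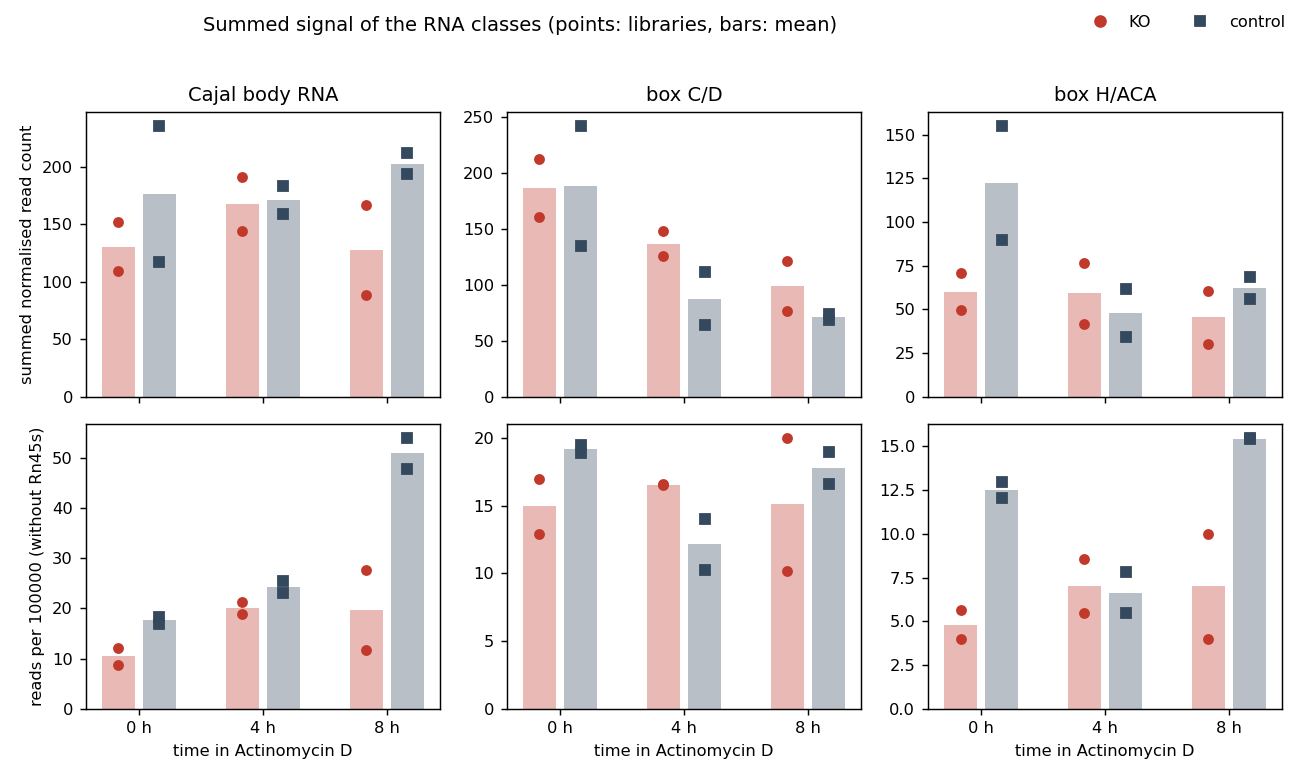
Summed value of the 9 Cajal body RNA, 69 box C/D and 36 box H/ACA genes by genotype and time (x axis), as normalised read counts (top row) and as reads per 100000 reads without Rn45s (bottom row). Points are libraries and bars their mean (n = 2); the Cajal body RNA share reaches 50.9 in control at 8 h, against 19.6 in KO.

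Only 8 members averaged 10 or more across the libraries and entered the test across 6952 genes: Scarna2, Scarna13, Snord82, Snora74a, Snora78, Snord22, Snord49b and Snord49a. Snord49a (10.1) was just inside this limit and Snord104 (9.55) just outside. A gene that is high in 1 group only can enter through that group, so counts over these 8 describe them and not the 114. Changes were tested with limma on log2(value + 1), with Benjamini-Hochberg adjustment over the 6952 genes and a threshold of 0.05 for a call. Adding 1 makes the change of a low gene look smaller than it is.

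KO and control were compared at each time to ask which of these RNAs depend on Zcchc8. Scarna13 was the member that stood out. It was lower in both KO libraries than in both control libraries at 0, 4 and 8 h, but did not pass the test at any single time on the deposited scale. No member was called at 0, 4 or 8 h (0 of 8 each), where 4.23% of all tested genes rose and 0.0719% fell at 0 h, 0.748% rose and 0% fell at 4 h, and 4.88% rose and 0.0144% fell at 8 h. At an unadjusted p below 0.05, 1 member was lower at 0 h, 1 higher and 1 lower at 4 h, and 2 lower at 8 h. At that threshold 0.547%, 0.834% and 0.331% of all tested genes were lower and 17%, 8.9% and 22.4% higher. On whole reads, edgeR on the deposited scale also called none, while edgeR with TMM factors and DESeq2 each called 1, 1 and 2 members lower at 0, 4 and 8 h, where edgeR called 0.288%, 0.46% and 0.23% of all tested genes lower and DESeq2 0.561%, 0.647% and 0.345%. The members' median log2 change was −0.66, 0.45 and −1.28 at 0, 4 and 8 h, against 0.44, 0.29 and 0.63 for all tested genes. All 8 members had a negative value at 0 h and at 8 h on both scales, and 3 of 8 did at 4 h on both. On the deposited scale some of these signs rested on 1 library. At 8 h Snord49a had 10.8 and 0 in KO, against 6.49 and 10.4 in control. For Scarna2 the 0 h values were 108 and 81.1 in KO, against 76.4 and 142 in control. Snord104, just outside the limit for the test, was higher in KO without overlap at 0 and 8 h. On the deposited scale the member nearest 0 at 0 h was Snord22 (−0.03), above 20.5% of all tested genes. At 8 h it was Scarna2 (−0.57), above 4.01% of them. The median of all tested genes lay near 0 after TMM scaling, so values below 0 are common there. After TMM scaling 1 member fell at 0 h (Scarna13), none was called at 4 h and 2 fell at 8 h (Scarna13 and Scarna2), where 0.388%, 0.245% and 0.273% of all tested genes fell and 1.35%, 0.69% and 1.44% rose.

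Scarna13 (U93) is a Cajal body RNA with tandem H/ACA units that guides pseudouridylation of spliceosomal RNA. At 0 h it had 13.5 (8 reads) and 15.9 (9 reads) in KO, against 27.7 (21 reads) and 77.5 (24 reads) in control. At 4 h it had 17.4 (31 reads) and 24.2 (25 reads) in KO, against 45.1 (62 reads) and 68.0 (88 reads) in control. At 8 h it had 30.0 (47 reads) and 16.4 (13 reads) in KO, against 51.3 (95 reads) and 62.8 (139 reads) in control. Every KO library lay below both control libraries of its time, on the deposited scale and after TMM scaling, and no other tested member did so at all 3 times. Of all tested genes, 0.129% did so on the deposited scale and 3.96% after TMM scaling. The log2 changes were −1.60 (SE 0.541, adjusted p = 0.0799) at 0 h, −1.39 (adjusted p = 0.318) at 4 h and −1.32 (adjusted p = 0.138) at 8 h. After TMM scaling they were −1.97 (adjusted p = 0.0213), −1.68 (adjusted p = 0.0692) and −1.98 (adjusted p = 0.0188). Without control 0 h replicate 2 the 0 h change was −0.87 (adjusted p = 0.293), and without control 0 h replicate 1 it was −2.33 (adjusted p = 0.00690).

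The mean of the 3 differences between KO and control was added after the values at each time had been seen. By it Scarna13 fell by 1.44 on the log2 scale (SE 0.312, limma adjusted p = 0.000992; lower in 6 of 6 KO libraries than in the control libraries of the same time), and it was the only one of the 8 that was called. In that contrast 0.259% of all tested genes fell and 19% rose. After TMM scaling the change was −1.88 (adjusted p = 7.77e-05), Snora78 also fell (−1.58, adjusted p = 0.0295), while 3.19% of all tested genes fell and 5.42% rose. The p-values of this contrast do not allow for its choice after the values were seen, and fits without a library reuse the others. Without each single library in turn the Scarna13 log2 change was −1.19 to −1.68. Without control 0 h replicate 2 and KO 8 h replicate 2 together, Scarna13 changed by −1.05. Its host Snhg10 was too low to be tested, with a mean value of 3.11. The summed value of the fibroblast markers moved with the genotype at each time as well on the deposited scale, in the opposite direction, and the ESC markers as a share of reads moved in the same direction. The averaged contrast called 8 of 9 tested fibroblast markers higher, and 5 after TMM scaling, where 19% and 5.42% of all tested genes rose. It called 0 of 6 tested ESC markers, and 1 lower after TMM scaling, where 3.19% of all tested genes fell. Their part in this difference was not tested. In bulk RNA, fewer cells that hold an RNA and less RNA per cell cannot be told apart. Over the 12 libraries the tested genes with the profile most like that of Scarna13 were Haus1 (Pearson r = 0.764), Grin1os (0.751), Iqgap2 (0.741), Snora78 (0.700) and Slc22a17 (0.671), a description over libraries that share their groups and scaling.

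Scarna2, a Cajal body RNA with box C/D features that guides methylation of the U2 small nuclear RNA, was the most abundant member by reads (1521 of 4766). At 0 h it had 108 and 81.1 in KO, against 76.4 and 142 in control. At 4 h it had 107 and 143 in KO, against 93.1 and 93.5 in control. At 8 h it had 110.3 and 61.7 in KO, against 126 and 121 in control. KO lay above control at 4 h and below it at 8 h, without overlap, and was not called at any time on the deposited scale (log2 changes −0.16, 0.40 and −0.57, adjusted p = 0.898, 0.866 and 0.395). The 8 h difference was called after TMM scaling (−1.24, adjusted p = 0.0479). Without KO 8 h replicate 2 it was −0.16 on the deposited scale (adjusted p = 0.891).

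**Figure D3:**
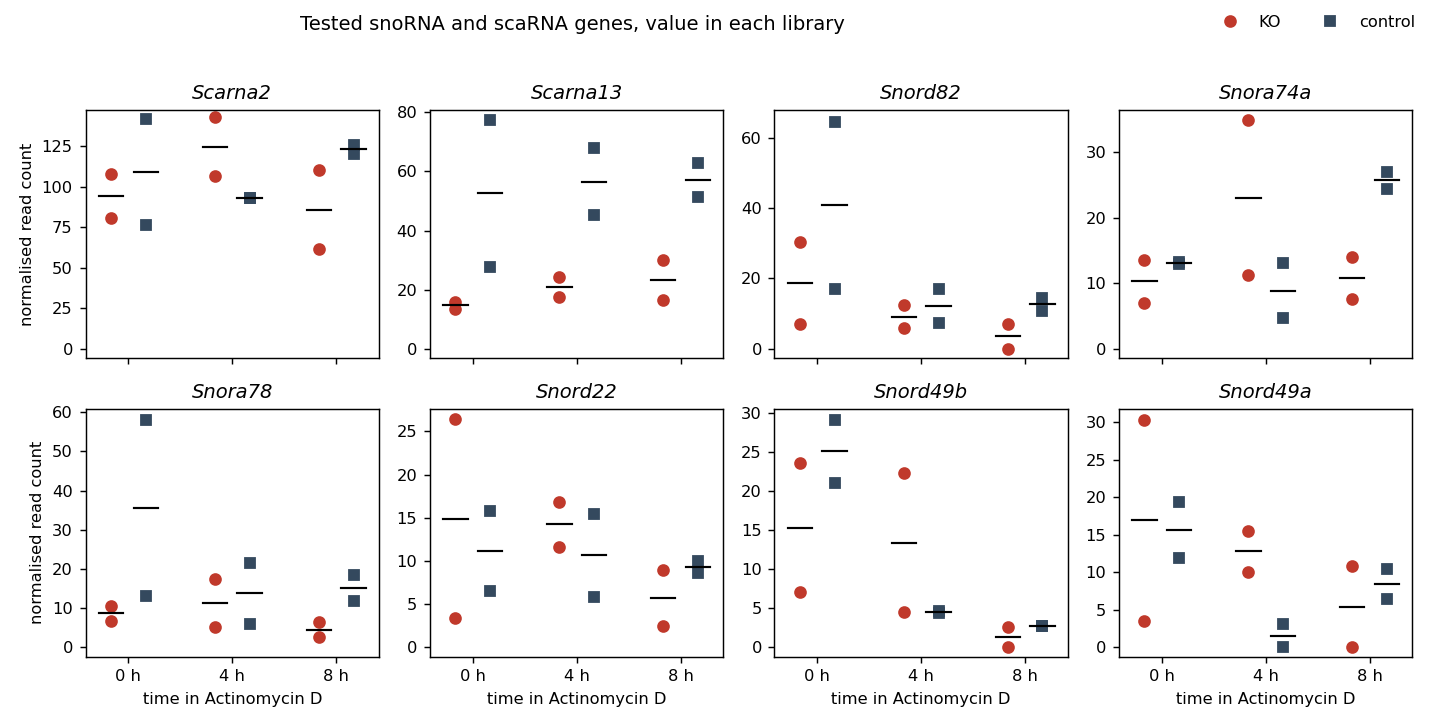
Normalised read count (y axis) of each of the 8 tested snoRNA and scaRNA genes in each library by time in Actinomycin D (x axis), with KO as circles and control as squares and black lines at the mean (n = 2). Scarna13 has 13.5 to 30.0 in the 6 KO libraries and 27.7 to 77.5 in the 6 control libraries.

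Among the box H/ACA RNAs, Snora78 had 6.74 (4 reads) and 10.6 (6 reads) in KO at 0 h, against 13.2 (10 reads) and 58.1 (18 reads) in control. At 4 h it had 5.04 and 17.4 in KO, against 5.82 and 21.6 in control. At 8 h it had 6.37 and 2.52 in KO, against 11.9 and 18.5 in control. KO was below control without overlap at 0 and 8 h, with log2 changes of −1.61 (SE 0.834, adjusted p = 0.312) and −1.64 (adjusted p = 0.230), and the groups overlapped at 4 h (−0.23, adjusted p = 0.974). Among all tested genes, the KO libraries lay below the control libraries without overlap in 3.27%, 8.7% and 2.86% over 0, 4 and 8 h, and above them in 37.3%, 37% and 55.3%. Its host Snhg9 had a mean value of 6.38 and was not tested.

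Snora74a (U19), the other tested H/ACA RNA, had 13.5 and 7.05 in KO at 0 h, against 13.2 and 12.9 in control. The 4 h values were 11.2 and 34.9 in KO, against 13.1 and 4.63 in control. The 8 h values were 14.0 (22 reads) and 7.56 (6 reads) in KO, against 27.0 (50 reads) and 24.4 (54 reads) in control. Its groups overlapped at 0 and 4 h and were apart only at 8 h, where the log2 change was −1.23 (SE 0.732, adjusted p = 0.302).

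Of the box C/D RNAs, Snord82 (U82) had 30.3 and 7.05 in KO at 0 h, against 17.1 and 64.6 in control. At 4 h it had 12.3 and 5.81 in KO, against 7.28 and 17.0 in control. At 8 h it had 7.01 (11 reads) and 0 (0 reads) in KO, against 10.8 (20 reads) and 14.5 (32 reads) in control. Only the 8 h groups did not overlap (log2 change −2.25, SE 0.890, adjusted p = 0.122). Ncl, its host, encodes nucleolin and was not called between genotypes at any time (log2 changes 0.15, 0.08 and 0.73, adjusted p = 0.884, 0.979 and 0.220).

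Snord49a had 30.3 (18 reads) and 3.53 (2 reads) in KO at 0 h, against 11.9 (9 reads) and 19.4 (6 reads) in control. At 4 h it had 10.1 (18 reads) and 15.5 (16 reads) in KO, against 0 (0 reads) and 3.09 (4 reads) in control. At 8 h it had 10.8 (17 reads) and 0 (0 reads) in KO, against 6.49 (12 reads) and 10.4 (23 reads) in control. KO was above control without overlap at 4 h only, with a log2 change of 2.74 (SE 1.08, adjusted p = 0.320).

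Snord49b had 23.6 (14 reads) and 7.05 (4 reads) in KO at 0 h, against 21.1 (16 reads) and 29.1 (9 reads) in control. After 4 h it had 4.48 and 22.3 in KO, against 4.37 and 4.63 in control. After 8 h it had 2.55 (4 reads) and 0 (0 reads) in KO, against 2.70 (5 reads) and 2.71 (6 reads) in control. The groups were apart only at 8 h, by less than 1 read in the nearer KO library, and the log2 changes were −0.87, 1.04 and −0.98 (adjusted p = 0.723, 0.844 and 0.550). The host of both, 2410006H16Rik, was not called between genotypes at any time (adjusted p = 0.608, 0.908 and 0.429).

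Snord22 (U22), needed for processing of 18S ribosomal RNA in Xenopus, overlaps an exon of its host Snhg1. At 0 h it had 3.37 and 26.4 in KO, against 15.8 and 6.46 in control. The 4 h values were 16.8 and 11.6 in KO, against 5.82 and 15.4 in control. The 8 h values were 8.92 and 2.52 in KO, against 8.65 and 9.94 in control. Its groups overlapped at all 3 times, with log2 changes of −0.03, 0.50 and −0.80 (adjusted p = 0.993, 0.935 and 0.587).

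**Figure D4:**
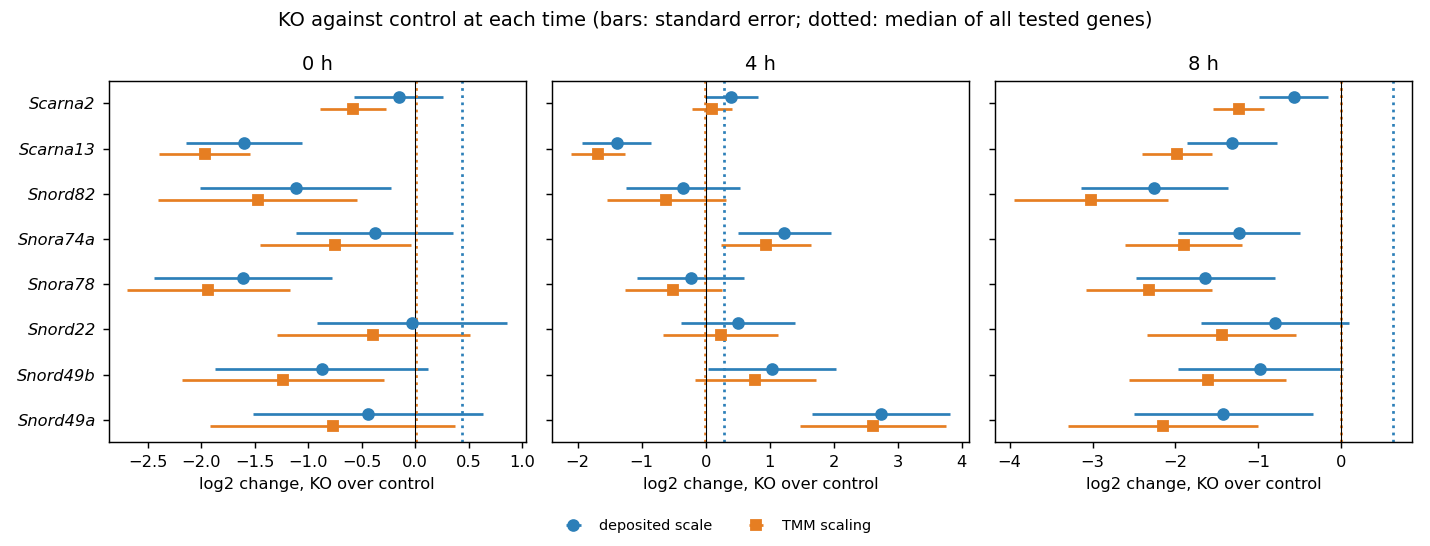
Log2 change of KO over control (x axis) for the 8 tested genes at 0, 4 and 8 h, with standard errors, on the deposited scale (circles) and after TMM scaling (squares); dotted lines mark the median of all 6952 tested genes. Scarna13 lies between −1.32 and −1.60 on the deposited scale at the 3 times. All 8 genes lie below 0 at 0 and 8 h, some of them close to it (Snord22 at −0.03 at 0 h, deposited scale).

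Below the test's limit, 79 members had a read, with mean values of 0.0376 to 9.55 and 1 to 120 reads in all. Snord104 had 7.56 to 23.6 (median 13.4) in the KO libraries and 0.903 to 8.73 (median 6.71) in the control libraries. Snord55 had 3.78 to 15.3 in KO and 0 to 12.4 in control, and Snord83b 0 to 17.4 in KO and 2.91 to 12.9 in control. With times pooled these box C/D RNAs overlapped between genotypes. Within times, Snord104 was higher in KO without overlap at 0 h (23.6 and 14.1 in KO, 7.90 and 6.46 in control) and at 8 h (12.7 and 7.56 in KO, 3.24 and 0.903 in control). Snord55 was so at 0 h (6.74 and 5.29 in KO, 2.63 and 0 in control), and Snord83b was lower in KO at 8 h (5.10 and 0 in KO, 5.40 and 7.23 in control). Of the H/ACA RNAs, Snora68 had 0 to 10.1 in KO and 3.61 to 25.8 in control, and Snora61 had 0 to 9.69 in KO and 0 to 19.4 in control. Of the Cajal body RNAs, Scarna10 had 0 to 13.5 in KO and 0 to 10.5 in control, Scarna17 had 2.52 to 10.7 in KO and 0 to 11.6 in control, and Scarna6 had 0 to 10.1 in KO and 0 to 12.9 in control. Without overlap within a time, Snora68 was lower in KO at 4 and 8 h, Snora61 lower in KO at 0 h and Scarna17 higher in KO at 0 h. At the other times the groups of these members overlapped. Among all tested genes, KO lay above control without overlap in 37.3%, 37% and 55.3% at 0, 4 and 8 h, and below it in 3.27%, 8.7% and 2.86%. Those shares are over genes that averaged 10 or more and were not worked out for genes as low as these members. The members named here were not tested, and some of the gaps were of less than 1 unit. Pooled over times and taken per read without Rn45s, 31 of 53 detected box C/D, 10 of 27 H/ACA and 1 of 7 Cajal body RNA genes had the higher value in KO. Over all genes with a read this share was 58.0%.

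Snord19, chosen after its values were seen, had reads in every KO library and in no control library. In KO it had 13.5 (8 reads) and 3.53 (2 reads) at 0 h, 3.36 (6 reads) and 5.81 (6 reads) at 4 h, and 11.5 (18 reads) and 11.3 (9 reads) at 8 h, against 0 reads in each of the 6 control libraries. The mean over the KO libraries was 8.16 ± 4.46 (SD, n = 6, times pooled), 13.9-fold higher than a floor of 3 reads over the control libraries together. That floor takes each read as an independent molecule, which may not hold for member reads, so the fold could be lower. Among 15923 genes with a read, 12 had reads in all 6 KO libraries and none in control, and Snord19 had the most (49 reads), while 0 genes had the reverse pattern. It did not reach the mean value for the test, and its host Gnl3 was listed at 0 in all 12 libraries. Whether its reads come from the snoRNA or from a longer transcript over the same bases cannot be told from a count. In all, 16 members had reads in KO only and 11 in control only. Apart from Snord19 these had at most 11 reads in KO and at most 5 in control.

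The change during Actinomycin D asks how long these RNAs last once transcription stops. On the deposited scale the box C/D RNA Snord49b fell from 0 to 8 h in both genotypes, and Snord82 was called lower in KO only. The Cajal body RNAs Scarna2 and Scarna13 and the box H/ACA RNA Snora74a were among the genes that declined least over that time. At 8 against 0 h, 2 of 8 members fell in KO (Snord49b and Snord82) and 1 of 8 in control (Snord49b), where 40.5% of all tested genes fell in KO and 53.5% in control, and 0.0575% and 0.503% rose. At 4 against 0 h, 0 of 8 were called in either genotype by limma, with 0 and 2 members (both lower) at an unadjusted p below 0.05 in KO and control, where 28.7% and 24% of all tested genes were lower and 0.144% and 1.64% higher (1 higher in KO and 0 in control by edgeR with TMM factors and by DESeq2, where 4.13% and 4.16% of all tested genes rose in KO), where 14.4% and 11.8% of all tested genes fell and 0.0288% and 0.489% rose. The members' median log2 change from 0 to 8 h was −0.89 in KO and −0.47 in control, against −1.15 and −1.33 for all tested genes.

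Snord49b fell by 2.90 on the log2 scale from 0 to 8 h in KO (SE 0.996, limma adjusted p = 0.0201) and by 2.80 in control (adjusted p = 0.0179). Its mean value was 15.3 ± 11.7, 13.4 ± 12.6 and 1.27 ± 1.80 at 0, 4 and 8 h in KO, and 25.1 ± 5.66, 4.50 ± 0.190 and 2.71 ± 0.00581 in control (n = 2 each). The KO call was lost without KO 0 h replicate 1 (−2.10, adjusted p = 0.213) and without KO 8 h replicate 2 (−1.99, adjusted p = 0.160). The control call was lost without control 0 h replicate 2 and without either control 8 h replicate (adjusted p = 0.0675 to 0.0954). Snord49a was not called: its log2 change from 0 to 8 h was −1.79 in KO (adjusted p = 0.166) and −0.81 in control (adjusted p = 0.518), and from 0 to 4 h it was 0.18 in KO and −3.001 in control (adjusted p = 0.938 and 0.0581). Their host 2410006H16Rik changed by −1.43 from 0 to 8 h in KO (adjusted p = 0.0537) and fell by 1.49 in control (adjusted p = 0.0346).

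Snord82 fell by 2.49 from 0 to 8 h in KO (SE 0.890, adjusted p = 0.0250), and its change in control was −1.35 (adjusted p = 0.187). The KO call rests on KO 8 h replicate 2, which had 0 reads. Without that library the change was −0.99 (adjusted p = 0.390), and without KO 0 h replicate 1 it was −1.51 (adjusted p = 0.292). Ncl changed by −0.80 in KO (adjusted p = 0.0720) and fell by 1.37 in control (adjusted p = 0.00197). The genes most like Snord49b in profile over the 12 libraries were Zfml (r = 0.949), Kif11, C77080, Zfp644 and Hist1h2ai (0.919), and those most like Snord82 were Ezh1 (0.921), Dnah8, Sh3bgrl2, Cisd3 and Saa3 (0.876).

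The remaining 5 tested members stood nearer to 0 than the median gene. From 0 to 8 h, Scarna13 changed by 0.57 in KO and 0.28 in control, which placed it above 99.2% and 95.3% of the tested genes. Scarna2 changed by −0.18 in KO and 0.24 in control, above 92.6% and 94.9% of them. Snora74a changed by 0.07 in KO and 0.93 in control, above 96.7% and 98.2%. Snora78 changed by −0.89 in KO and −0.87 in control, and Snord22 by −0.89 in KO and −0.12 in control. None of these was called on the deposited scale, where adjusted p ran from 0.273 to 0.939.

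After TMM scaling, which gives each RNA relative to the bulk of the remaining RNA, the calls with time were rises. Scarna13 rose by 1.66 from 0 to 8 h in KO (adjusted p = 0.0164) and by 1.68 in control (adjusted p = 0.00927). Scarna2 rose by 0.98 in KO (adjusted p = 0.0474) and by 1.64 in control (adjusted p = 0.00119), and already by 1.09 from 0 to 4 h in KO (adjusted p = 0.0356). Snora74a rose by 2.27 from 0 to 8 h in control (adjusted p = 0.0272). Snord49b and Snord82 were not called on this scale (adjusted p = 0.182 to 0.303 for the 3 comparisons called above). The counts were 2 of 8 higher in KO and 3 of 8 in control at 8 h, where 5.35% and 10.6% of all tested genes rose and 5.7% and 11.2% fell. At 4 h they were 1 of 8 in KO and 0 in control, where 3.55% and 5.21% rose and 4.63% and 6.78% fell. The table held no spike-in rows, so the values do not say which scale gives the amount per cell.

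**Figure D5:**
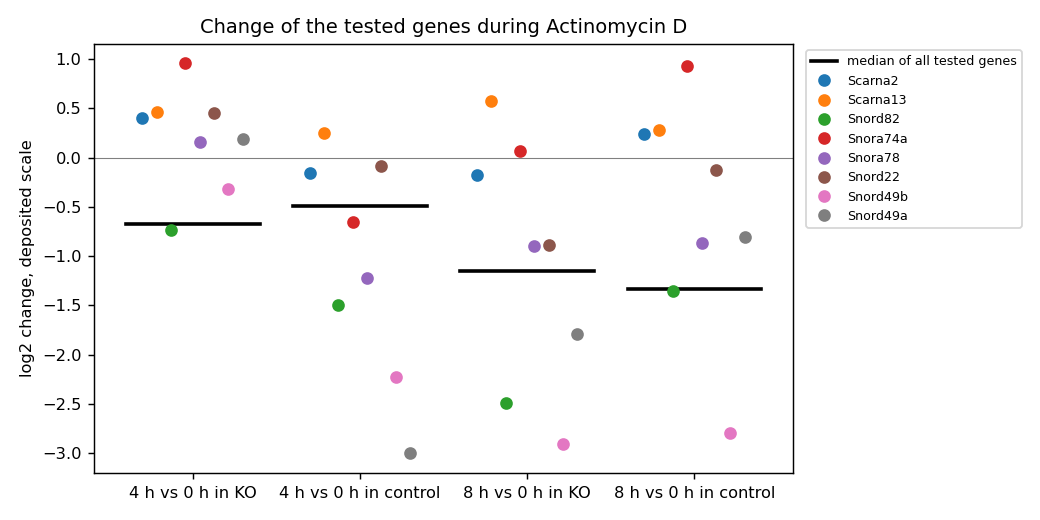
Log2 change on the deposited scale (y axis) of the 8 tested genes from 0 to 4 h and from 0 to 8 h in KO and in control (x axis); black lines mark the median of all 6952 tested genes. Scarna13, Scarna2 and Snora74a lie near or above 0 from 0 to 8 h in both genotypes, while Snord49b lies at −2.90 in KO and −2.80 in control.

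The difference between KO and control in the change with time was tested as an interaction. No member was called from 0 to 4 h or from 0 to 8 h (0 of 8 each by limma, with 1 (higher) and 0 members at an unadjusted p below 0.05, and 0 by edgeR and DESeq2), where 0.0144% of all tested genes were called higher and 0% lower in each by limma. At the unadjusted threshold 0.604% were higher and 2.57% lower from 0 to 4 h, and 3.73% higher and 2.29% lower from 0 to 8 h. Snord49a had the largest value, 3.18 (SE 1.52, adjusted p = 0.9998) from 0 to 4 h. For Scarna13 the difference was 0.21 (SE 0.765) from 0 to 4 h and 0.29 (SE 0.765) from 0 to 8 h.

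Of the genes for proteins that make and hold these RNAs, 1 was called between genotypes at a single time on the deposited scale. Of the core proteins of box C/D particles 4 of 5 listed genes were tested, among them Fbl (fibrillarin, the methyltransferase), which averaged 292 ± 31.4 in KO and 247 ± 66.3 in control at 0 h (n = 2 each). Of the H/ACA core proteins all 4 were tested, among them Dkc1 (dyskerin, the pseudouridine synthase) with 239 ± 35.8 in KO and 209 ± 120.3 in control. None of these 8 was called at 0, 4 or 8 h, nor were 9 tested genes of Cajal bodies and scaRNA transport, 12 of snoRNA release and 3′ end processing, or 25 snoRNA host genes. After TMM scaling 1 of the host genes was called lower at 0 h and 1 at 4 h, where 0.388% and 0.245% of all tested genes were. The averaged contrast called 1 of 4 box C/D core, 1 of 9 Cajal body and 2 of 25 host genes higher, where 19% of all tested genes rose. With TMM scaling it called 4 of 25 host genes and 1 of 10 assembly factors lower, where 3.19% of all tested genes fell. It called no other gene of these lists. At 0 h the medians of these lists were between −0.04 and 0.32, against 0.44 for all tested genes. Exosc4, an exosome subunit, had 96.8 ± 20.2 in KO and 30.3 ± 1.79 in control (log2 change 1.63, adjusted p = 0.0577). Of 10 tested assembly factors, Znhit3, a box C/D assembly factor, was higher in KO at 8 h (28.4 ± 22.2 in KO, 6.13 ± 0.268 in control; log2 change 1.80, adjusted p = 0.0453), where 4.88% of all tested genes were, and not after TMM scaling. Rn45s, the ribosomal RNA precursor whose mature products many snoRNAs modify, had 193438 to 234828 in KO and 131959 to 219412 in control at 0 h. It was higher in KO at 4 h (5347 to 7151 in KO, 1967 to 2369 in control; log2 change 1.52, adjusted p = 0.0469) and at 8 h (1.31, adjusted p = 0.0396). The 8 h difference was not called after TMM scaling (0.64, adjusted p = 0.237).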

How the data were processed

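Total RNA depleted of ribosomal RNA was measured in 12 libraries, 2 in each of 6 groups of genotype and time. The deposited table holds a normalised signal, in which each library's read counts per RefSeq transcript had been scaled by a single factor of the authors. Per the submitters' processing notes, the build was mm9 and the tools included HTSeq 0.6.0, TopHat2 2.1.1 and DESeq2, with no settings given. Not given in the sources used here were the strand and mate settings of the counting and the RefSeq version. Reads of a member and of overlapping genes or antisense genes cannot be told apart. Per the labels' protocols RNA was extracted with a column kit (RNeasy) and ERCC spike-ins were added. Such columns recover short RNA poorly as a rule, and the table held 0 spike-in rows.

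Of 33896 rows, 978 repeats were dropped (29 of the 143 rows of members), and 32918 transcripts were summed to 23974 genes. Dividing each value by that of 1 read gave whole reads within 0.001 for 100% of values. The 6952 genes that averaged 10 or more were tested with limma 3.58.1 (R 4.3.3; trend and robust options; two-sided) on log2(value + 1) in 1 fit of 6 group means, and adjusted over all tested genes by Benjamini-Hochberg. An adjusted p without another tool's name is limma's. Alternatives were other pseudocounts, no filter, TMM scaling, edgeR 4.0.16 and DESeq2 1.42.0 on whole reads, a replicate block, transcript rows alone, the compared groups alone and leaving out each library. The averaged contrast, edgeR without a filter and leaving out a pair of libraries together were added after the data were seen. On simulated counts with 200 changed genes, the test recovered 74.7%, 66.0% and 73.7% of 4-fold changes and 11.7%, 6.67% and 12.0% of 2-fold changes for KO against control at 0, 4 and 8 h, with 9.34%, 2.62% and 6.85% of calls false. The simulation gave all genes the same spread on TMM-scaled libraries. It held neither the shift of the deposited scale nor the wider KO 8 h pair. These rates are over genes of all levels and do not give the power for the members, most of which had few reads.

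Members, lists and tests were chosen with earlier results of these data known. Every member that reached the limit was named, of the others the 8 with the most reads, and from each list up to 3 genes with the smallest p at 0 h and those called. Lists covered core proteins, assembly, release and end processing, Cajal bodies, host genes, NEXT, and ESC and fibroblast markers. Chromosome, host and sequence come from GENCODE M21 and RefSeq on GRCm38, matched by accession for 114 members, with a sequence for 110. Since the files use mm9, no coordinates are given. Depth limits precision: 1 to 3 reads separate many members from 0.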

Additional observations from a re-analysis of the deposited data

How the results depend on the processing

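Many calls differed between scalings. KO against control had 0, 0 and 0 members called at 0, 4 and 8 h as reported. It had 1, 0 and 2 lower after TMM scaling, and 1, 1 and 2 lower by DESeq2, by edgeR with TMM factors, and by edgeR with TMM factors and no filter. The averaged contrast (1 lower as reported) had 2 lower after TMM scaling and by edgeR with TMM factors, 3 lower by DESeq2, 6 by edgeR with TMM factors and no filter (1 higher and 5 lower, with all detected members tested) and 2 by limma with no filter (1 higher, Snord19, and 1 lower). With TMM scaling, either edgeR fit with TMM factors, or DESeq2, 4 against 0 h in KO had 1 member higher, 8 against 0 h in KO had 2 higher in place of 2 lower, and 8 against 0 h in control had 3 higher in place of 1 lower. The Scarna2 change from 0 to 8 h in KO (−0.18 as reported) was reversed to 0.98 after TMM scaling, 1.09 by edgeR with TMM factors, 1.09 by the same with no filter and 1.06 by DESeq2. For 8 against 0 h in KO, edgeR on the deposited scale called 1 member and the compared groups alone 0. The compared groups alone called 1 for KO against control at 4 h, and limma with no filter called 2 for 8 against 0 h in control and 3 for 8 against 0 h in KO (2 higher and 1 lower). The cause of these changes was not tested. Pseudocounts of 0.5 and 5 and transcript rows alone left every count within 1.5 times. In the averaged contrast, added after the values were seen, Scarna13 had log2 changes of −1.05 to −1.91 over the alternatives.

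Leaving out 1 library, or a pair of libraries together, gave 0 to 1 members called for KO against control at 0 h, 0 to 2 at 4 h, 0 to 2 at 8 h, 1 to 3 for the averaged contrast, 0 to 0 for 4 against 0 h in KO, 0 to 1 in control, 0 to 3 for 8 against 0 h in KO and 0 to 2 in control. Without control 0 h replicate 1, Scarna13 was called at 0 h (−2.33) and at 8 h and Snord82 at 8 h. Without KO 8 h replicate 1, Snord82 was called for KO against control at 8 h (−3.76), Snord49a was added for 8 against 0 h in KO, and Snora78 and Snord82 joined Scarna13 in the averaged contrast, as they did without control 0 h replicate 1. The 2 calls for 8 against 0 h in KO were lost without KO 0 h replicate 1 and without KO 8 h replicate 2, and the 1 in control without control 0 h replicate 2, control 8 h replicate 1 or control 8 h replicate 2. Snord49a was called lower for 4 against 0 h in control without KO 0 h replicate 2, KO 8 h replicate 1, KO 8 h replicate 2 or control 0 h replicate 1. Without control 0 h replicate 2 and KO 8 h replicate 2 together, Scarna13 was called lower and Snord49a higher at 4 h. Replicate numbers did not pair the samples (correlations of replicate differences −0.0703 to 0.117). With a replicate block, 1 member was called for KO against control at 0 h (Scarna13, adjusted p = 0.0420) and 1 for 4 against 0 h in control (Snord49a, adjusted p = 0.0402), and no other call of a member changed. At this depth, differences of a few reads in members below the limit were not detectable.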
